A study of Mus musculus with 4 samples.

Results

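Opposite-strand transcripts are RNAs read from the strand of DNA facing a named gene, and mouse nomenclature marks them by adding "os" to the name of that gene, here called the host gene. The array carried 29924 gene names, and 150 of them ended in os, or in os and a digit, and had their host on the same array. These 150 transcripts faced 145 host genes, since a few hosts had more than 1 transcript, and a host is used here only as the reference for its own transcript. Every member was picked by its name alone, under a rule that was set with earlier results of these data known.

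Ureters were explanted from wildtype NMRI mouse embryos at E12.5, and the culture medium held either IWP-2 at 10 µM or only the solvent DMSO (2:1000) for 18 h. The sex of the embryos was not determined. IWP-2 inhibits Porcupine, the acyltransferase that lipid-modifies WNT ligands before secretion, so it acts on WNT signals of every cell type of the explant. Each of 4 two-colour arrays (replicates 1 to 4) compared a pool of treated explants with a pool of control explants, with treated RNA in red on replicates 1 and 3 and in green on replicates 2 and 4. The explants hold epithelium, mesenchyme and smaller cell populations together, so fewer cells of a type and less RNA per cell cannot be told apart.

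Antisense and divergent transcripts arise in several ways. Some start close to the promoter of the host and run away from it, some start inside the host and run across its exons, and some begin far off. Most have no known protein product, and a few are known to affect the transcription, splicing or imprinting of their neighbourhood, while for many no function is known. The name does not say which of these holds. A 60-base probe on an array of single-stranded oligonucleotides reads 1 strand, so a transcript and its host give separate signals even where they overlap.

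Probes of the transcripts that changed at least 1.5-fold are given first, 5′ to 3′ in lower case with no base marked, because these 60 bases are the whole of what was measured for each of them. Their positions are those of the mouse build mm9 on which the array was annotated. The Notumos probe lies at chr11:120523011-120523070 on the plus strand, the Gata5os probe at chr2:180075280-180075339 (plus), the Zeb2os probe at chr2:44968736-44968795 (plus) and the Kcnmb4os2 probe, whose span is longer than the probe, at chr10:115911663-115911854 (plus).
Notumos: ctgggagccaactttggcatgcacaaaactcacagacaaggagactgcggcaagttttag
Gata5os: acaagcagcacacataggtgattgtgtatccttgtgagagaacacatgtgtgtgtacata
Zeb2os: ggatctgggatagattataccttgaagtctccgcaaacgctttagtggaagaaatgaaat
Kcnmb4os2: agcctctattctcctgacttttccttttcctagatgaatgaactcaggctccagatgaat

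The pair of Frmd8os and Frmd8 is shown because both probes cover the same 60 bases, chr19:5851310-5851369 (mm9), from opposite sides. It was the 1 pair among all members whose brightest probes overlapped. The first 30 bases of the Frmd8os probe (plus strand) and the last 30 bases of the Frmd8 probe (minus strand) are reverse complements of each other.
Frmd8os: aaacagtgctctgtcctagagggttaaggc
Frmd8: gccttaaccctctaggacagagcactgttt

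Dnm3os is the primary transcript of a microRNA cluster, and its mature products are shown with their seeds (bases 2 to 8) in capitals. Members whose strand was missing from the RefSeq start-site records, such as Zeb2os and Emx2os, could not be searched for microRNA hairpins. Among the others of the 126 members with a RefSeq entry, Dnm3os was the 1 member with hairpins inside its span on its own strand. RefSeq (GRCm38.p6) places 2 hairpins there, with 4 mature microRNAs that carry 4 different seeds. The probes of Dnm3os read the long transcript.
mmu-miR-199a-5p: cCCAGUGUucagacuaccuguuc
mmu-miR-199a-3p: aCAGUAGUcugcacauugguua
mmu-miR-214-5p: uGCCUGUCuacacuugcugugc
mmu-miR-214-3p: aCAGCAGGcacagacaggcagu

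Strand was the first check of the name. In 142 of the 150 pairs the brightest probe of the transcript and that of its host were annotated to opposite strands, 6 transcripts had no probe position, and in 2 pairs (Cep112os2 with Cep112, Srrm4os with Srrm4) both probes were on the same strand. The reading of strand from the annotation was itself checked against RefSeq, where 22402 of 22513 probes with a known gene (99.507%) had the strand of that gene. RefSeq start-site records gave the strands of both partners for 85 pairs, and all 85 were opposite. Cep112os2 and Srrm4os were not among these 85, so their same-strand probes rest on the array annotation alone.

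The pairs differed widely in geometry. The median distance between the probes of a pair on opposite strands was 28235 bases, with a highest value of 907047, so most transcripts were read far from where their host was read. RefSeq listed 111 members as lncRNA, 10 as protein-coding, 3 as antisense RNA and 2 as transcribed pseudogenes. The protein-coding entries included Ccpg1os, Cebpzos, Crxos, Fancd2os, Slc7a6os, Tmem74bos, Toporsos (now Smim27), Trpc5os and Wdr83os, for which the name describes a position and not a non-coding RNA. The annotated spans of transcript and host overlapped in 88 of 126 pairs and were apart in 38.

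In 17 pairs the start sites faced away from each other with at most 1000 bases between them. The shortest form of this layout among the changed transcripts is shown by Map2k3os and Map2k3, whose starts lie 187 bases apart at chr11:60931867-60932054 (GRCm38.p6, RefSeq), so that a single stretch of DNA serves as the upstream region of both. It is read here on the minus strand, the strand of Map2k3os, with both start-site bases in capitals.
Map2k3 to Map2k3os: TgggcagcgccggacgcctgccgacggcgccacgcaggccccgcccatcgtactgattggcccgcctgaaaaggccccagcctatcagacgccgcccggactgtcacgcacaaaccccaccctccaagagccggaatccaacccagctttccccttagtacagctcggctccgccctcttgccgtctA

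Many of these transcripts were too dim to measure. A gene was tested when its brightest probe was well above background on all 4 arrays in at least 1 of the 2 groups. By this rule 87 of the 150 transcripts (58%) were tested, against 75.06% of all gene names and 136 of the 145 hosts (93.8%). For 83 transcripts the probe was above background in both groups on all 4 arrays. Another 49 were not above background in any channel of any array, and 14 untested ones were above it in some channels.

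The arrays were alike in quality. Median raw intensities of a channel ran from 368 to 711, 75.1 to 80.0% of probes were well above background, and no spot was saturated. The treatment was visible in Axin2, a direct target and feedback inhibitor of WNT signalling, whose log2 ratio of treated over control was -1.56 ± 0.09 (SD, n = 4, limma adjusted p = 1.23e-05). All 10 genes of a list of WNT targets were lower (Axin2 itself, Nkd1, Lef1, Sp5, Apcdd1, Tcf7, Notum, Lgr5, Fzd10 and Dkk2). The list was chosen with earlier results of these data known and holds Notum, a host treated below, so it is no independent check. Markers of cell types moved as well. All 7 epithelial markers were higher (log2 ratios 0.24 to 0.34), as were all 4 endothelial, all 4 blood and all 5 nephron progenitor markers (0.16 to 1.14 for the last), and all 4 smooth muscle markers were lower (-0.98 to -0.18). Of 6 mesenchymal markers 1 was lower and 1 higher (-0.74 to 0.80), and 2 of 5 markers of neural crest and neurons were higher. The part of these shifts in the changes of the transcripts below was not tested.

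Of the 87 transcripts tested, 32 passed the test (limma, Benjamini-Hochberg adjusted p below 0.05 over 22461 genes), 15 of them lower and 17 higher in treated ureters. This was 36.8% of the transcripts against 33.1% of all genes tested. The lower ones made up 17.2% of the transcripts against 15.0% of all genes, and the higher ones 19.5% against 18.1%. Their median log2 ratio was 0.01 beside a median of 0.00 over all genes tested. Changes were mostly small: 4 transcripts (4.60%) changed at least 1.5-fold beside 2.95% of all genes, and all 4 were lower. These 4 were Notumos, Gata5os, Zeb2os and Kcnmb4os2. Without replicate 3, Zeb2os was at -0.55 and Kcnmb4os2 at -0.52, both below 1.5-fold, which left 2.

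The 32 calls were of unequal strength. Notumos, Gata5os, Zeb2os, Kcnmb4os2, Dio3os, Runx2os1, Far2os2, Prss23os and Sp3os passed the test in the same direction under every other way of processing in which they could be tested. From the series table of fold changes, which is rounded to 1 decimal, 13 of the 32 passed in the same direction, with both channels treated as separate samples 20 did, and with 1 array left out 24 to 28 did. Slc7a6os and Sox6os were the least stable, and passed in 4 and 5 of 13 alternatives. On 29 of the 32 every array had the sign of the mean, the others being Sox6os, Peg3os and Toporsos. In 8 of the 32 the arrays differed with the dye that carried the treated RNA (dye term of the limma fit, unadjusted p below 0.05), namely Dnm3os, Fbxl12os, Frmd8os, Peg3os, Prss23os, Sox6os, Toporsos and Zeb2os. The share of all genes tested below that unadjusted limit was not counted, so the 8 cannot be called particular to these transcripts. After adjustment no gene passed for the dye term (limma, lowest adjusted p = 0.122).

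**Figure D1:**
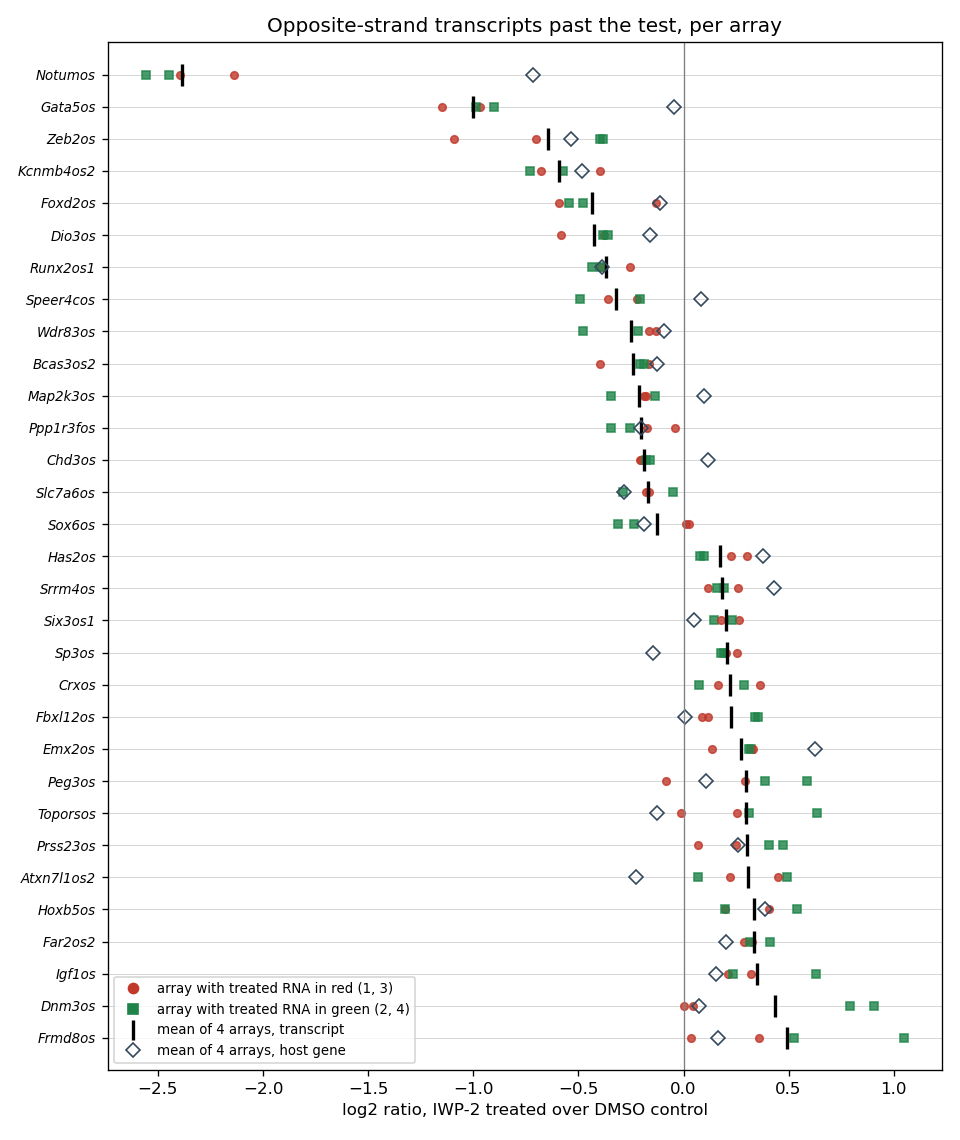
Log2 ratio of treated over control (x axis) on each of the 4 arrays for 31 of the 32 transcripts that passed the test, ordered by their mean, with circles for arrays that carried treated RNA in red, squares for arrays that carried it in green, a bar for the mean and an open diamond for the mean of the host gene. Notumos at -2.39 and Gata5os at -1.0 stand apart from the rest, and the circles and squares of Dnm3os do not mix.

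Notumos showed the largest change of any member. It faces Notum, which encodes a secreted enzyme that removes the lipid from WNT ligands and is itself induced by WNT signalling. Its log2 intensities in control channels were 8.49, 8.86, 8.80 and 9.01 on replicates 1 to 4, and 6.35, 6.41, 6.41 and 6.45 in the treated channels. The groups did not overlap, and the treated values lay at the detection limit: the probe was not well above background in any of the 4 treated channels. The measured log2 ratios were -2.14, -2.45, -2.40 and -2.56, with a mean of -2.39 ± 0.18 (SD, n = 4, limma adjusted p = 7.11e-06). Because the treated level is only bounded, the change is given as at least 5.0-fold lower. The bound sets the mean of the control channels against, per array, the higher of the treated value and the lowest signal among probes well above background.

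Notum itself fell less. Its log2 ratios were -0.42, -0.93, -0.52 and -1.0, a mean of -0.72 ± 0.29 (SD, n = 4, adjusted p = 0.000125). The fall was smaller with treated RNA in red (-0.42 and -0.52) than with treated RNA in green (-0.93 and -1.0). The Notum probe stayed well above background in all channels. The transcript minus host difference was -1.67 ± 0.16 (SD, n = 4) and had the same sign on all 4 arrays. With the bound in place of the measured value it was -1.60. For every such difference the test was an exact two-sided sign-flip over 4 arrays, whose smallest possible p is 2 of 16 sign assignments, so no difference between partners can pass a threshold of 0.05 by this test, and each is given as a value with its spread.

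Gata5os was the clearest case of a transcript that moved without its host. Gata5 encodes a zinc-finger transcription factor. Gata5os log2 intensities were 8.81, 8.47, 8.72 and 8.86 in control channels and 7.84, 7.57, 7.57 and 7.87 in treated channels, with no overlap. Its log2 ratios were -0.97, -0.90, -1.15 and -0.99, a mean of -1.0 ± 0.10 (SD, n = 4, adjusted p = 5.22e-05). Gata5 showed -0.03, 0.02, -0.16 and -0.00, a mean of -0.04 ± 0.08 (adjusted p = 0.457). The difference of -0.96 ± 0.04 had the smallest SD among the 84 pairs tested. RefSeq places the start of Gata5os 2646 bases from that of Gata5, with overlapping spans.

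Zeb2os and Kcnmb4os2 fell together with their hosts. Zeb2 encodes a zinc-finger repressor that acts in epithelial-mesenchymal transition, and Zeb2os is its natural antisense transcript. Zeb2os log2 ratios were -0.70, -0.38, -1.09 and -0.40, a mean of -0.64 ± 0.33 (SD, n = 4, adjusted p = 0.00106). The values fell into a pair of lower ones with treated RNA in red (replicates 1 and 3) and a pair of smaller ones with treated RNA in green (dye term of the limma fit, unadjusted p = 0.0075). Zeb2 followed the same order of arrays, with -0.67, -0.25, -0.83 and -0.39 and a mean of -0.53 ± 0.26 (adjusted p = 0.000635). The difference between them was -0.11 ± 0.12.

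Kcnmb4 encodes the β4 subunit of large-conductance calcium-activated potassium channels. Kcnmb4os2 log2 ratios were -0.40, -0.57, -0.68 and -0.73, a mean of -0.59 ± 0.15 (SD, n = 4, adjusted p = 0.000912). All control intensities, 10.83 to 11.08, were above all treated ones, 10.35 to 10.43. Kcnmb4 fell by 0.49 ± 0.06 on the log2 scale (adjusted p = 0.000489), and the pair differed by -0.11 ± 0.12. Kcnmb4os1, a further transcript facing the same host, was above background in 1 control and 2 treated channels and was not tested.

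**Figure D2:**
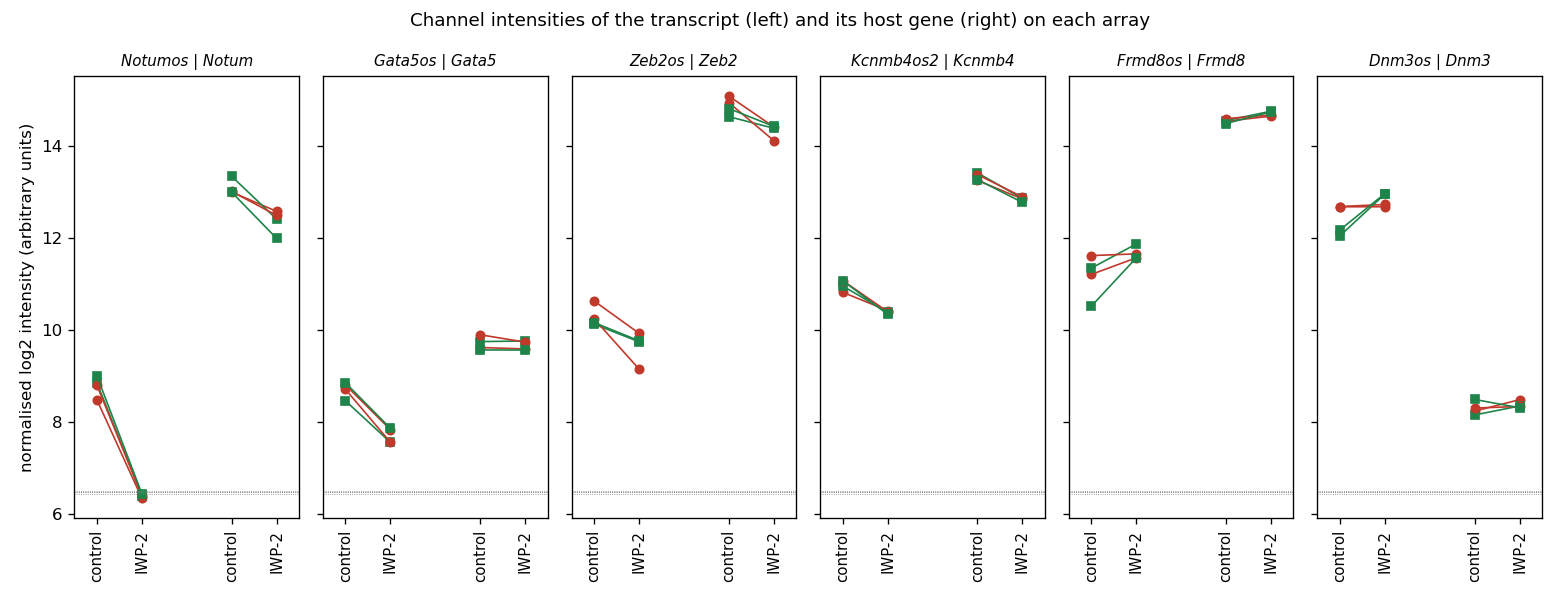
Normalised log2 intensity (y axis, arbitrary units) in the control and the IWP-2 channel of each array, joined by a line, for 6 transcripts (left in each panel) and their host genes (right), with circles for treated RNA in red, squares for treated RNA in green and dotted lines at the lowest signal of a probe well above background. Notumos ends at the dotted lines in all 4 treated channels, and intensities of different probes cannot be set against each other.

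Among the 11 other lower transcripts, 4 faced genes of transcription factors or chromatin regulators. Foxd2os showed -0.13, -0.48, -0.59 and -0.54, a mean of -0.44 ± 0.21 (SD, n = 4, adjusted p = 0.00682), while the forkhead gene Foxd2 was at -0.11 ± 0.19 (adjusted p = 0.227). Runx2os1 fell on every array (-0.25, -0.44, -0.39 and -0.39, mean -0.37 ± 0.08, adjusted p = 0.00166). Its host Runx2, the master regulator of bone-forming cells, was above background in all control and no treated channels and was at least 1.26-fold lower (adjusted p = 0.00396). Chd3os, listed by RefSeq as Rnf227, lies beside the gene of a nucleosome remodelling helicase. It fell evenly, with -0.20, -0.16, -0.21 and -0.18 and a mean of -0.19 ± 0.02 (adjusted p = 0.0119). Chd3 was at 0.12 ± 0.06 and did not pass the test (adjusted p = 0.0817), and the difference of -0.30 ± 0.07 had the same sign on all 4 arrays.

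Sox6os, beside the SRY-box gene Sox6, only just passed the test and depended on the dye orientation. Its log2 ratios were 0.03 and 0.01 with treated RNA in red and -0.24 and -0.31 with treated RNA in green, a mean of -0.13 ± 0.17 (SD, n = 4, adjusted p = 0.048). It was the 1 transcript past the test whose means in the 2 orientations had opposite signs. Sox6 was at -0.19 ± 0.12 (adjusted p = 0.0374).

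Enzymes and a transporter were the hosts of the next group. Dio3os lies beside Dio3, which encodes the deiodinase that inactivates thyroid hormone and sits in an imprinted region. It was lower on all arrays (-0.38, -0.38, -0.58 and -0.36, mean -0.43 ± 0.11, SD, n = 4, adjusted p = 0.00139). A second Dio3os probe, placed at the same bases, gave -0.32 ± 0.03. Dio3 fell by 0.16 ± 0.07 on the log2 scale (adjusted p = 0.0271). Map2k3os, in the shared upstream layout shown above, gave -0.19, -0.13, -0.18 and -0.34 (mean -0.21 ± 0.09, adjusted p = 0.0175), and the kinase gene Map2k3 was at 0.10 ± 0.08 (adjusted p = 0.154).

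Ppp1r3fos, listed by RefSeq as Flicr, gave -0.17, -0.26, -0.04 and -0.34 (mean -0.20 ± 0.13, adjusted p = 0.0144). Ppp1r3f, encoding a glycogen-targeting phosphatase subunit, had the same mean of -0.20 ± 0.07 (adjusted p = 0.0126). Slc7a6os, a protein-coding gene despite its name, gave -0.18, -0.05, -0.16 and -0.29 (mean -0.17 ± 0.10, adjusted p = 0.0432). Its host Slc7a6, a cationic amino acid transporter gene, was at -0.28 ± 0.12 (adjusted p = 0.00594). Partners in both pairs thus passed the test in the same direction.

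The remaining lower members were Wdr83os, Bcas3os2 and Speer4cos. Wdr83os encodes a small endoplasmic reticulum membrane protein, and its log2 ratios were -0.13, -0.22, -0.16 and -0.48 (mean -0.25 ± 0.16, SD, n = 4, adjusted p = 0.0142). A second probe shifted by a few bases gave -0.26 ± 0.18. Its start lies 217 bases from that of Wdr83, which was at -0.09 ± 0.08 (adjusted p = 0.118). Bcas3os2, whose host Bcas3 encodes a regulator of the cytoskeleton, showed -0.16, -0.21, -0.40 and -0.19 (mean -0.24 ± 0.11, adjusted p = 0.0132) beside a host at -0.12 ± 0.23 that did not pass (adjusted p = 0.118). Speer4cos gave -0.36, -0.49, -0.22 and -0.21 (mean -0.32 ± 0.14, adjusted p = 0.00829) beside Speer4c at 0.08 ± 0.06 (adjusted p = 0.159). The Speer4 genes form a family of near-identical copies, so neither signal can be assigned to a single locus.

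The 17 higher transcripts all changed less than 1.5-fold with the processing used here. Under the alternatives Far2os2 passed 1.5-fold at 0.70 with Agilent processed signals and 0.63 from the series table, and Frmd8os at 0.62 without replicate 2. The largest means, those of Frmd8os and Dnm3os, were also the most uneven. Frmd8 encodes a FERM-domain protein that stabilises the iRhom and ADAM17 sheddase complex. Frmd8os log2 ratios were 0.36, 0.52, 0.04 and 1.05, a mean of 0.49 ± 0.42 (SD, n = 4, adjusted p = 0.00971), and one array, replicate 3, was close to 0. It averaged 0.20 with treated RNA in red and 0.79 with treated RNA in green (dye term, limma unadjusted p = 0.0186). Frmd8, read from the same 60 bases on the other strand, showed 0.11, 0.20, 0.08 and 0.25, a mean of 0.16 ± 0.08 (adjusted p = 0.0208). Both probes ranked the arrays in the same order, from replicate 3 at the bottom to replicate 4 at the top.

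Dnm3os, the transcript of the microRNAs shown above, lies within Dnm3, which encodes a dynamin GTPase. Its log2 ratios were 0.05 and 0.00 on replicates 1 and 3 and 0.91 and 0.79 on replicates 2 and 4. The change was thus seen with treated RNA in green and not with treated RNA in red (dye term, limma unadjusted p = 3.89e-05; no gene passed the test for the dye term after adjustment, with a lowest adjusted p of 0.122). The mean was 0.44 ± 0.48 (SD, n = 4) and passed the test (adjusted p = 0.0008) in a fit that holds a dye term, and without that term it did not. A second tested probe gave -0.17, 0.89, 0.21 and 0.71, and another, dim one averaged 0.02 ± 0.14. Dnm3 was at 0.07 ± 0.19 (adjusted p = 0.466).

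Developmental transcription factors were the hosts of 4 higher transcripts. Emx2os lies beside Emx2, a homeobox gene required for the urogenital tract, and both rose. Emx2os gave 0.14, 0.32, 0.33 and 0.31 (mean 0.27 ± 0.09, SD, n = 4, adjusted p = 0.00629), with 0.37 ± 0.19 from a second probe, and Emx2 gave 0.64, 0.74, 0.41 and 0.72 (mean 0.63 ± 0.15, adjusted p = 0.000409). The transcript rose less than its host on all 4 arrays, by -0.35 ± 0.19. Hoxb5os (0.20, 0.54, 0.41 and 0.20, mean 0.33 ± 0.17, adjusted p = 0.0118) and Hoxb5 (mean 0.39 ± 0.14, adjusted p = 0.00287) rose by similar amounts, with a difference of -0.05 ± 0.20.

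Six3os1 gave 0.26, 0.14, 0.18 and 0.23 (mean 0.20 ± 0.05, adjusted p = 0.012) beside Six3 at 0.05 ± 0.04 (adjusted p = 0.395), a homeobox gene of the forebrain and eye. Sp3os was equally even, with 0.20, 0.19, 0.25 and 0.18 (mean 0.21 ± 0.03, adjusted p = 0.00897) and the same mean of 0.21 from a second probe. Sp3, the gene of a ubiquitous zinc-finger factor, was at -0.15 ± 0.25 and did not pass (adjusted p = 0.0808). These were rises in the transcript beside a host that did not pass the test. Six3 was dim, with a probe well above background in at most 2 of the 4 control channels, so a change in it may have been missed.

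Secreted factors and matrix synthesis were the functions of 3 more hosts. Igf1os, beside the gene of insulin-like growth factor 1, gave 0.32, 0.63, 0.21 and 0.23 (mean 0.35 ± 0.19, SD, n = 4, adjusted p = 0.0108), while a second probe, next to it on the same strand, averaged 0.02 ± 0.10, so the probes disagreed. Igf1 was at 0.15 ± 0.14 (adjusted p = 0.0262) by its brightest probe. With its 5 tested probes averaged it was at -0.02 (limma adjusted p = 0.734), so the rise of this host depended on the probe. Has2os (0.23, 0.08, 0.30 and 0.10, mean 0.18 ± 0.11, adjusted p = 0.0168) rose beside the hyaluronan synthase gene Has2 (mean 0.38 ± 0.11, adjusted p = 0.00134). Prss23os (0.25, 0.47, 0.07 and 0.41, mean 0.30 ± 0.18, adjusted p = 0.00449) rose beside Prss23, which encodes a secreted serine protease (mean 0.26 ± 0.14, adjusted p = 0.0129).

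In another 2 pairs both partners rose. Far2os2 gave 0.33, 0.41, 0.29 and 0.32 (mean 0.34 ± 0.05, SD, n = 4, adjusted p = 0.00188) beside Far2, a fatty acyl-CoA reductase gene, at 0.20 ± 0.23 (adjusted p = 0.0193). Srrm4os gave 0.26, 0.19, 0.12 and 0.16 (mean 0.18 ± 0.06, adjusted p = 0.0198) beside Srrm4, the gene of a neuronal splicing activator, at 0.43 ± 0.21 (adjusted p = 0.00884). The latter is the pair whose probes were annotated to 1 strand, so their signals cannot be assigned to separate strands.

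Of the 84 pairs in which both partners were tested, a single pair passed the test in opposite directions. Atxn7l1os2 rose, with 0.22, 0.49, 0.45 and 0.07 and a mean of 0.31 ± 0.20 (SD, n = 4, adjusted p = 0.0246). Atxn7l1, which encodes a paralogue of a subunit of the SAGA complex, fell, with -0.24, -0.12, -0.32 and -0.21 and a mean of -0.22 ± 0.09 (adjusted p = 0.00856). The signs were opposite on every array, and the difference was 0.53 ± 0.21.

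Another 4 higher transcripts stood beside hosts that did not pass or were not tested. Toporsos, a protein-coding gene, gave 0.26, 0.31, -0.01 and 0.64 (mean 0.30 ± 0.27, SD, n = 4, adjusted p = 0.0199), and the ubiquitin ligase gene Topors was at -0.13 ± 0.21 (adjusted p = 0.145). Peg3os, at the imprinted zinc-finger gene Peg3, gave 0.29, 0.39, -0.08 and 0.59 (mean 0.30 ± 0.28, adjusted p = 0.021), with Peg3 at 0.11 ± 0.10 (adjusted p = 0.14). Toporsos and Peg3os both were below 0 on replicate 3 and highest on replicate 4, as Frmd8os was lowest and highest on the same arrays.

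For Fbxl12os and Crxos the result depended on the probe. The brightest Fbxl12os probe gave 0.09, 0.34, 0.12 and 0.35 (mean 0.23 ± 0.14, SD, n = 4, adjusted p = 0.00609), but its other tested probes averaged -0.06 ± 0.07 and -0.14 ± 0.11. Fbxl12, an F-box gene, was at 0.01 ± 0.09 (adjusted p = 0.89). The brightest Crxos probe gave 0.16, 0.29, 0.36 and 0.07 (mean 0.22 ± 0.13, adjusted p = 0.0251), while the others averaged -0.04 ± 0.08 and 0.32 ± 0.08, and the photoreceptor gene Crx was not tested.

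**Figure D3:**
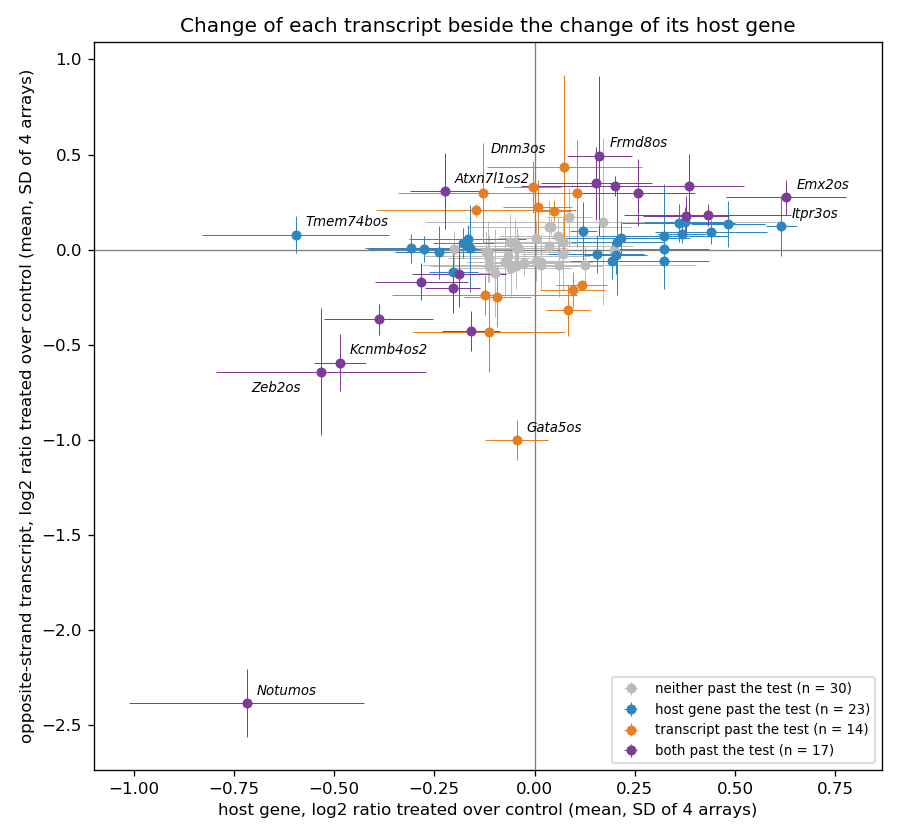
Mean log2 ratio of treated over control of the host gene (x axis) and of the opposite-strand transcript (y axis) for the 84 pairs with both partners tested, with bars for the SD of 4 arrays and colours for which partner passed the test. Notumos and Gata5os lie far below the other transcripts, and Itpr3os and Tmem74bos lie near the horizontal line at 0 beside hosts that changed more.

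Read over all pairs, partners often moved the same way and often parted. Both partners were lower past the test in 8 pairs and both higher in 8. In 14 pairs the transcript passed and the host did not, 7 lower and 7 higher, and in 23 pairs the host passed and the transcript did not. Neither passed in 30. The probes of tested transcripts gave lower signals than those of tested hosts, with median log2 control levels of 8.002 and 11.53. These are probe signals and do not rank amounts of RNA. Whether the lower signals contributed to the pairs in which only the host passed was not tested. The mean log2 ratios had the same sign in 55 of 84 pairs, and across these pairs Pearson's r was 0.53, or 0.45 without Notumos, given as a description since partners share arrays, pools and in part the same DNA. The hosts themselves passed the test in 63 of 136 cases (46.3%), 27 lower and 36 higher. Of all genes tested 33.1% passed, 15.0% lower and 18.1% higher. No same-sign share was computed for unrelated pairs of genes, so the 55 of 84 pairs have no reference. Under the alternatives on these 84 pairs the number ran from 43, with the series table of fold changes, to 60. With start sites within 1000 bases 10 of 20 tested pairs had the same sign, and with start sites further apart 20 of 28 did. Where RefSeq spans overlapped, 31 of 45 tested pairs had the same sign and 8 passed the test alike, and where spans were apart 12 of 24 did and 3 passed alike, a difference that was not tested.

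Several hosts changed strongly beside a transcript that did not pass. Itpr3, an inositol trisphosphate receptor gene, was at 0.62 ± 0.04 (SD, n = 4, adjusted p = 0.000165), while Itpr3os gave 0.21, 0.09, -0.08 and 0.27 (mean 0.12 ± 0.16, adjusted p = 0.17). Tmem74b was at -0.60 ± 0.23 (adjusted p = 0.00258), while Tmem74bos, a coding gene, gave 0.19, -0.04, 0.09 and 0.07 (mean 0.08 ± 0.10, adjusted p = 0.218). The differences were -0.49 ± 0.13 and 0.67 ± 0.19, each with the same sign on all 4 arrays. Kcnd3 and Trpc5, both encoding ion channels, were at -0.95 ± 0.44 and -1.13 ± 0.06 (adjusted p = 5.17e-05 and 2.42e-05), but Kcnd3os and Trpc5os were not well above background in any channel of any array, so both groups were below the detection limit and no fold is given for them.

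**Figure D4:**
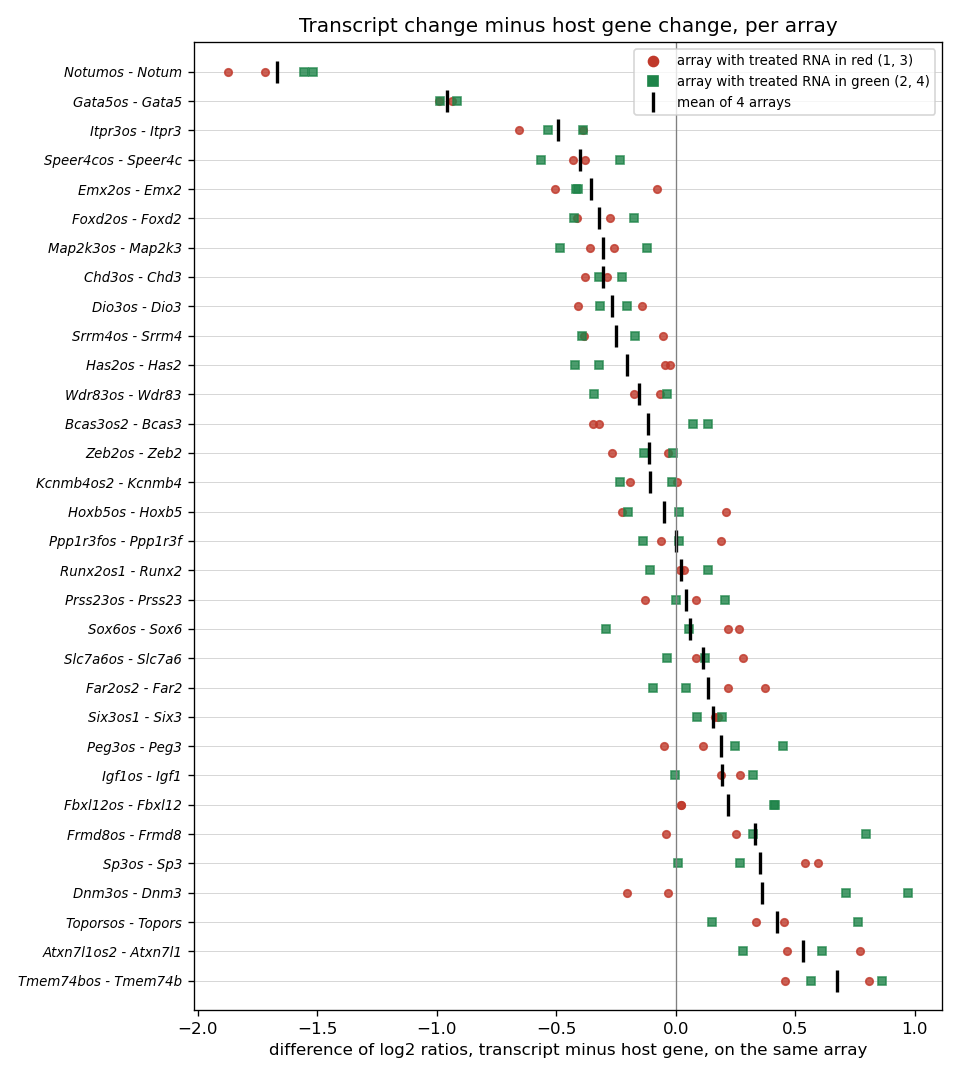
Transcript minus host difference of log2 ratios (x axis) on each of the 4 arrays, for 30 of the 31 pairs with a transcript past the test and a tested host and for the pairs of Itpr3os and Tmem74bos, with circles for treated RNA in red, squares for treated RNA in green and a bar for the mean. Notumos at -1.67 and Gata5os at -0.96 lie to the left of all others on every array, and in many pairs the 4 points lie on both sides of 0.

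Among the 31 pairs with a transcript past the test and a tested host, the difference kept its sign on all 4 arrays in 18. Over all 84 tested pairs it did so in 36, and the median SD of the difference was 0.16.

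The 55 tested transcripts that did not pass had mean log2 ratios between -0.12 and 0.17, and 45 of them lay within 0.1 of 0. In order from the lowest to the highest mean they were Chn1os3, Cep112os2, Dgkeos, Fcnaos, Rbm3os, Zfp335os, Sox5os1, Zmiz1os1, Ppp1r18os, Atad3aos, Med9os, Lrp8os1, N4bp2os, Lhx1os, Hmgb4os, B9d1os, Aknaos, Zfp652os, Fam219aos, Stamos, Snhg7os, Tmem147os, Zfp85os, Dbhos, Lrp8os2, Pitpnm2os1, Igf2os, Dlx6os2, Phtf1os, Appbp2os, Mccc1os, Irx3os, Spag17os, Cebpzos, Zbtb11os1, Dnmt3aos, Lppos, Ift88os, Smc2os, Tmem51os1, Rab10os, Ggnbp2os, Gimap1os, Tmem74bos, Hoxa11os, Nrg3os, Man2c1os, Rab11fip4os1, Dnmt3bos, Itpr3os, Plekhd1os, Hoxd3os1, Ccpg1os, Wt1os and Ube4bos1. Hosts past the test beside these transcripts ran from -0.60 to 0.62, and their transcripts from -0.12 to 0.14. Homeobox loci were among them, with Hoxa11os at 0.08 beside Hoxa11 at 0.37 and Hoxd3os1 at 0.14 beside Hoxd3 at 0.36. Igf2os, at an imprinted growth factor locus, was at 0.00 beside Igf2 at -0.28.

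The 14 untested transcripts above background in some channels were Arhgap33os, Brip1os, Cdrt4os1, Fhitos, Foxl2os, G6bos, Junos, Kcnmb4os1, Pard3bos1, Prkag2os1, Rsf1os2, Taco1os, Tnk2os and Vax2os. Junos, beside the immediate early gene Jun, was above it in 0 control and 3 treated channels, and Brip1os in 2 control and 0 treated channels. The 49 never above background were Abhd11os, Arf4os, Arhgap20os, Arl4aos, Atcayos, Bcas1os2, Ccdc42os, Cdk19os, Clnkos, Copg2os2, Csmd2os, Ctcflos, Dlx6os1, Faddos, Fancd2os, Fgf2os, Fmr1os, Frs3os, Gad1os, Gldnos, Grip1os1, Grip1os2, Hnf4aos, Il1bos, Kcnd3os, Kirrel3os, Macrod2os2, Nphs1os, Nudt12os, Pax6os1, Plxna4os1, Ppifos, Ppp2r2cos, Pramef12os, Rab26os, Rbm46os, Slain1os, Slc13a2os, Slc36a1os, Slc6a19os, Slfn5os, Sorbs2os, Sox5os3, Srrm3os, Tbc1d22bos, Tmem150cos, Trpc5os, Unc45bos and Zfhx2os. These 63 transcripts were not tested. With no filter on dim probes 1 of them passed, Trpc5os, at -0.29, -0.21, -0.32 and -0.01 (mean -0.21, limma adjusted p = 0.021), although its probe was not well above background in any channel.

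Start-site windows of the changed transcripts were searched for the core letters of TCF/LEF sites, the DNA motif through which β-catenin acts. RefSeq windows of 250 bases before to 50 after a start existed for 9 of the 15 lower and 6 of the 17 higher transcripts. Neither CTTTGA nor CTTTGT occurred on either strand in the windows of the 9 lower transcripts. Each occurred in windows of 2 of the 6 higher transcripts, and over all 32851 windows CTTTGA was present in 16% and CTTTGT in 18.7%. No window was at hand for Notumos.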

How the data were processed

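The authors labelled amplified cRNA of pooled ureters with AlexaFluor dyes and ran Agilent Feature Extraction 10.7.3.1. The deposited scanner files give an intensity per channel and spot, as the mean spot signal and the median local background. The deposited log10 ratio of red over green was used to check directions. A deposited series table holds a signed fold change per probe and array, whose normalisation is not given in the sources used here, and it served as an alternative.

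Intensities were corrected with limma 3.58.1 (normexp, offset 50) in R 4.3.3 and normalised within arrays by loess (span 0.3). Control spots had weight 0 and outlier spots were left out. The 4 spots of a probe were averaged, and the brightest probe stood for a gene. Ratios were turned to treated over control. The fit held a treatment and a dye term, with eBayes and Benjamini-Hochberg adjustment over 22461 genes and a threshold of 0.05. Channel levels are log2 intensities after loess and Aquantile scaling. The SD is over 4 arrays, and their number limits the precision. All arrays shared 1 slide.

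The name rule that gave members and hosts, and the lists, were set with earlier results of these data known. Each transcript past the test, with a bound, or beside a host past the test at 1.5-fold or more is given with every array, and the rest by name and range, except 1 transcript past the test that is not reported here by name and stays in the counts. On simulated log2 ratios, tested with the same fit, all 100 genes changed by 1.0 (log2) and 96 of 100 changed by 0.5 were recovered. Normalisation, filter and probe choice were not part of this simulation. Smaller changes were not simulated, and 28 of the 32 transcripts past the test lay under 0.5. Alternatives were other signals, offset, normalisation, dye term, pairing, filter, probe choice and arrays left out. The replicates are pools by the labels. The limma p-values rest on the spread between these arrays that is left after the dye term, with variance shared across genes by eBayes. They do not measure the SD printed beside them, which includes the difference between dye orientations.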

Additional observations from a re-analysis of the deposited data

Results flagged for a closer look

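In 3 of the 99 sets of 4 array values examined, 1 array lay far from the other three by Dixon's criterion, which chance meets in about 1 of 20 sets. Dio3os was at -0.58 on replicate 3 while the other arrays lay between -0.38 and -0.36. Emx2os was at 0.14 on replicate 1 with the others between 0.31 and 0.33, and the host gene Prss23 was at 0.47 on replicate 2 with the others between 0.17 and 0.20. Each kept its sign on all 4 arrays.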

How the results depend on the processing

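The counts of transcripts past the test, 15 lower and 17 higher, stayed within 1.5 times of these values in most alternatives. Exceptions were the series table of fold changes (7 lower, 9 higher), whose values are rounded to 1 decimal, and the channels as separate samples with no replicate block (8 higher), which ignores that both channels share an array. Leaving out 1 array gave 10 to 14 lower and 14 to 17 higher. The counts for hosts and for 1.5-fold changes were recomputed after the data were seen. Hosts past the test were 10 lower and 16 higher from the series table and 18 higher with no replicate block. With 1 array left out 17 to 26 hosts were lower and 23 to 28 higher. The 4 transcripts at 1.5-fold or more became 8 with Agilent processed signals, 7 with the series table and 2 to 5 with 1 array left out. The same sign in both partners was found in 43 to 60 of 84 pairs where the filter was unchanged, in 48 of 75 with the stricter filter on dim probes and in 87 of 150 with no filter.

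No transcript reversed. Calls were lost without replicate 1 for Map2k3os, Peg3os, Ppp1r3fos, Six3os1, Slc7a6os, Sox6os, Srrm4os and Toporsos (adjusted p 0.0526 to 0.126), without replicate 2 for Atxn7l1os2, Crxos, Sox6os and Srrm4os (0.0531 to 0.0897), without replicate 3 for Atxn7l1os2, Bcas3os2, Crxos, Has2os, Map2k3os, Slc7a6os, Sox6os and Wdr83os (0.0526 to 0.152), and without replicate 4 for Has2os, Map2k3os, Peg3os, Ppp1r3fos, Slc7a6os, Sox6os and Toporsos (0.0508 to 0.2). Without the dye term Dnm3os (0.0881), Has2os, Peg3os, Slc7a6os, Sox6os and Toporsos were lost, and with all probes averaged Fbxl12os was at 0.01 (0.877). Of the 32 transcripts 13 still passed in the same direction from the series table and 20 with no replicate block. Hosts whose log2 ratio changed sign had small values in these settings. Dnm3 ran from -0.020 without replicate 2 to 0.17 without replicate 4. Fbxl12 was at -0.00053 with Agilent signals, at -0.034 from the series table and at -0.036 with median centring, and Igf1 was at -0.021 with all probes averaged. The cause was not tested. The Notumos log2 ratio was -3.58 with a normexp offset of 0, -4.76 with Agilent signals, -2.92 from the series table and -2.45 to -2.32 with 1 array left out, and its difference to Notum was -2.85, -4.04, -2.22 and -1.71 to -1.63 in the same order. Results within slides could not be recomputed since all arrays shared 1 slide. No paired analysis beyond the ratio within each array was possible because the 4 arrays form 1 group.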
